A study of Triticum turgidum subsp. durum with 24 samples.

Results

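The developing endosperm of durum wheat (Triticum turgidum, cultivar Kronos) was compared between 20 and 10 days post anthesis (dpa) across all genes, and not only across those of starch metabolism. The comparison used 6 of the 24 RNA sequencing libraries of the series, 3 collected at 20 dpa and 3 at 10 dpa, and every library of these timepoints was taken. Both groups were endosperm of the same wild-type cultivar, with no treatment, a tetraploid that carries an A and a B subgenome, so most genes are present as a pair of homeologs. A replicate was a pool of 6 endosperms at 10 dpa and of 3 endosperms at 20 dpa, and spikes of the same plant could serve several timepoints, so the p-values measure the spread between these pools. Age was the only labelled difference between the groups. The change of pool size went with it and cannot be told apart from it.

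Grain filling is the period in which the starchy endosperm, whose cells have finished dividing, deposits starch and storage protein. Starch is made in the amyloplast from ADP-glucose. Starch synthases extend the glucan chains, branching enzymes and isoamylases shape amylopectin, and granule-bound starch synthase makes amylose. In wheat, large A-type granules start early in grain development and small B-type granules start later, and the genes of gluten and other storage proteins are among the most strongly transcribed genes of the tissue.

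The 6 libraries held between 58278667 and 78676665 estimated counts. Between a library of 10 dpa and a library of 20 dpa, the median absolute difference over genes was 0.57 to 0.88 on the log2 scale of CPM, the counts as a share of the library, scaled by TMM, the trimmed mean of M-values, which sets the bulk of genes level between libraries. Within 10 dpa this distance was 0.29 to 0.48, and within 20 dpa it was 0.29 to 0.47. Replicate 1 of 20 dpa was nearer to the 18 dpa libraries (0.29 to 0.31) than to the others of its group (0.39 and 0.47). Replicate 2 of 10 dpa was nearer to replicate 1 of 13 dpa (0.278) than to the others of its group (0.295 and 0.482). A library of each group stood apart from the others. Of 58 starch-related genes that averaged 10 TPM or more, 53 were lowest at 10 dpa in replicate 1, with a median of -0.91 on the log2 scale against the mean of the other 10 dpa libraries. TPM is the length-corrected share of a transcript in its library. At 20 dpa, genes without counts at 10 dpa were mostly lowest in replicate 1, as given with these genes. Calls on starch-related genes are also given without replicate 1 of 10 dpa, as counts for each category and by name where a single call was lost for a gene described in full.

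The tissue markers were read first. The starchy endosperm genes GBSS1, AGPS1, cAGPL and BT1.1, which encode the granule-bound starch synthase, both subunits of the cytosolic ADP-glucose pyrophosphorylase and the ADP-glucose transporter of the amyloplast, summed over 8 genes to 2225, 6503 and 5580 TPM at 10 dpa and to 4279, 3730 and 2799 TPM at 20 dpa. They were thus abundant in every library, and the groups overlapped. GBSS2-B1, the granule-bound starch synthase of pericarp and vegetative tissues, stood at 11.8, 8.71 and 14.5 TPM at 10 dpa and at 2.37, 1.25 and 1.03 TPM at 20 dpa. It was lower in all libraries of 20 dpa, and its part in the falls described here was not tested. In bulk endosperm, fewer cells of a type and less RNA per cell cannot be told apart.

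The transcriptome became concentrated in few transcripts. The 10 most abundant transcripts of each library took 9.31%, 14.5% and 10.3% of all TPM at 10 dpa and 40.7%, 37.6% and 43.2% at 20 dpa, or 11.4% ± 2.75 and 40.5% ± 2.78 (mean ± SD, n = 3). The 100 most abundant took 32.1% ± 4.13 and 66.9% ± 1.93. The number of transcripts over 1 TPM was 25959, 26197 and 26393 at 10 dpa and 22332, 24591 and 23372 at 20 dpa. In each of these 3 measures the groups did not overlap, and the two-sided exact permutation test gave p = 0.1, the smallest p that 3 against 3 libraries allow. The number of transcripts over 1000 TPM was 125 ± 13.2 at 10 dpa and 69.3 ± 1.15 at 20 dpa, so fewer transcripts of that level carried the larger share.

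**Figure D1:**
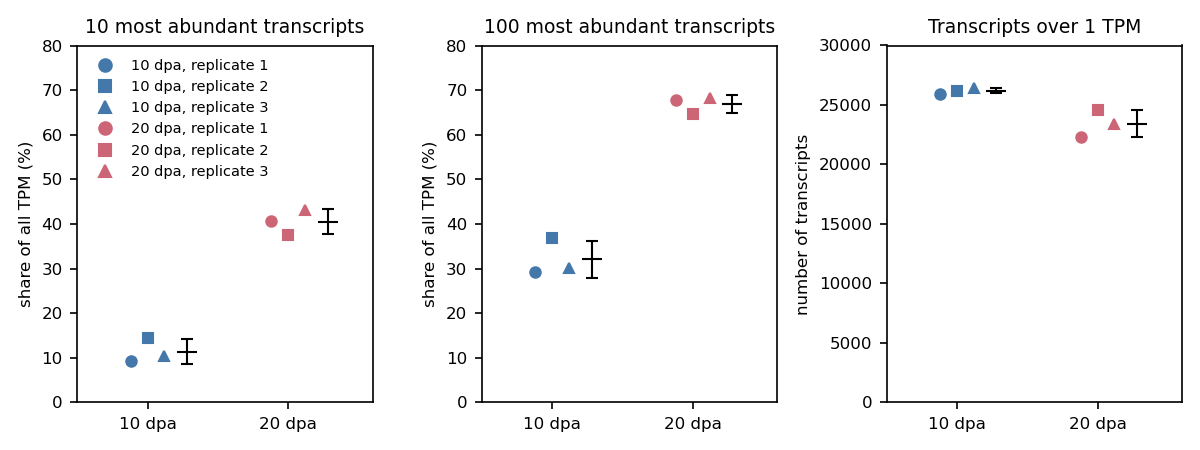
Share of all TPM in the 10 and in the 100 most abundant transcripts (left and middle, percent) and number of transcripts over 1 TPM (right) in the libraries of 10 dpa (blue) and 20 dpa (red). Black bars give the mean and SD of 3 libraries. The top 10 transcripts hold 9.31% to 14.5% at 10 dpa and 37.6% to 43.2% at 20 dpa.

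With such a shift, a gene can hold its level against most other genes and still lose its share of the library. With TMM scaling, the median log2 fold change over the 44240 genes tested was 0.03. With no scaling beyond library totals it was -0.74, and with limma on log2(TPM + 0.1) it was -0.59. Fold changes below are therefore TMM values, which are relative to the bulk of genes, and a DEG whose direction flips with library totals is named as such. The TPM values given per library are shares of the library and carry the other scale. Of the 44240 genes, 4071 (9.2%) had TPM values that were higher in all libraries of 20 dpa than in any of 10 dpa, and 22381 (50.6%) had values that were lower in all of them.

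A gene is called a differentially expressed gene (DEG) here at an adjusted p of at most 0.05 by edgeR's quasi-likelihood test, with Benjamini-Hochberg adjustment over all genes tested, and a fold of more than 1.5. By this rule 8037 genes rose (18.2%) and 6694 fell (15.1%) from 10 to 20 dpa, a split of 54.6% against 45.4% of 14731 DEGs, which were 33.3% of all genes tested. With library totals in place of TMM, 3607 rose (8.15%) and 19192 fell (43.4%), a split of 15.8% against 84.2%. Of the genes that rose with TMM, 3606 also rose with library totals, and all 6694 that fell with TMM also fell. With an absolute log2 fold change over 1.5, 4993 rose (11.3%) and 2406 fell (5.44%). Without replicate 1 of 10 dpa, 5845 rose (13.2%) and 5366 fell (12.1%), together 25.3%, and 5615 and 5064 of them were among the genes called with all libraries. No gene called in one direction was called in the other under any alternative.

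The falls sat among the more abundant genes and the rises among the less abundant. When all genes tested were split into 5 equal groups by their mean level over all 24 libraries, 18.9% of the lowest group rose and 7.18% fell. In the highest group 12.3% rose and 22.1% fell. This split includes the libraries of 10 and 20 dpa, and is given as a description.

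The 5 most abundant transcripts at 20 dpa all rose. TRITD0Uv1G003650, which has no chromosome in the assembly, stood at 4241, 26178 and 14828 TPM at 10 dpa and at 87922, 87770 and 63315 TPM at 20 dpa. Its log2 fold change was 3.17 ± 0.91 (SE; edgeR adjusted p = 0.010), and all libraries of 20 dpa were above those of 10 dpa. This 1 transcript held more of the library at 20 dpa than all starch-related genes together, which summed to 1.35% ± 0.14 of TPM.

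TRITD4Bv1G186120 (chromosome 4B) stood at 7157, 18645 and 14241 TPM at 10 dpa and at 48824, 41701 and 50844 TPM at 20 dpa, with a log2 fold change of 2.52 ± 0.57 (edgeR adjusted p = 0.0018). Its neighbour TRITD4Bv1G186130 stood at 4105, 15299 and 10041 TPM and then at 42811, 38195 and 43041 TPM, with a log2 fold change of 2.79 ± 0.67 (adjusted p = 0.0031). TRITD1Av1G210730 (chromosome 1A) stood at 4101, 13894 and 8108 TPM and then at 44681, 36005 and 60514 TPM, with a log2 fold change of 3.10 ± 0.68 (adjusted p = 0.0015). These genes kept the same order of libraries at 10 dpa, with replicate 1 lowest and replicate 2 highest. They rose under library totals too, by 1.80, 2.08 and 2.40 on the log2 scale.

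TRITD7Bv1G028510 (chromosome 7B) stood at 3849, 15103 and 9886 TPM at 10 dpa and at 45481, 44442 and 58120 TPM at 20 dpa. Its log2 fold change was 3.04 ± 1.13 (adjusted p = 0.039), and the call was lost without replicate 1 of 10 dpa (2.66, adjusted p = 0.13), without replicate 3 of 10 dpa (adjusted p = 0.11) and without any of the 20 dpa libraries (adjusted p = 0.059, 0.060 and 0.068). The groups did not overlap. The call on TRITD0Uv1G003650 was kept in each of these cases and was lost when only the 6 libraries were fitted (adjusted p = 0.099).

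In the libraries that were not compared, these 5 transcripts were low at 6 dpa and high at 30 dpa. TRITD0Uv1G003650 averaged 0.434 ± 0.266 TPM at 6 dpa, 855 ± 865 TPM at 8 dpa and 119433 ± 4856 TPM at 30 dpa (SD, n = 3), and its mean at 30 dpa lay above the 79669 ± 14163 TPM of 20 dpa by more than these spreads. The other 4 averaged between 13.5 and 153 TPM at 6 dpa and between 34351 and 38018 TPM at 30 dpa. Their means at 30 dpa were below those at 20 dpa. For TRITD4Bv1G186130, for example, they were 34351 ± 5496 and 41349 ± 2734 TPM, and these ranges of mean ± SD overlap.

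The most abundant transcripts at 10 dpa included 3 of these 5. The other 2 lost share. TRITD3Av1G020770 (chromosome 3A), the first at 10 dpa, stood at 22331, 13248 and 15930 TPM and then at 4074, 4561 and 4933 TPM. Its log2 fold change was -0.75 ± 0.32 (edgeR adjusted p = 0.067), so it was not called with TMM, and it was called with library totals (-1.53). TRITD1Av1G019270 (chromosome 1A) stood at 14276, 9507 and 8535 TPM and then at 5189, 3925 and 5438 TPM, with a log2 fold change of -0.30 ± 0.58 (adjusted p = 0.72) against -1.10 with library totals. Of the 10 most abundant transcripts at each timepoint, 6 were shared, and of the 100 most abundant, 57 were shared.

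The gain in share was confined to 4 chromosomes and to transcripts with no chromosome. The share of TPM on chromosome 1A was 10.2% ± 1.02 at 10 dpa and 14.4% ± 0.47 at 20 dpa, and that on 1B was 7.22% ± 0.26 and 10.8% ± 1.06. Chromosome 4B went from 7.48% ± 1.22 to 12.9% ± 0.52 and 7B from 6.35% ± 0.18 to 7.71% ± 0.71. Single transcripts weighed heavily in these gains. TRITD7Bv1G028510 went from a mean of 9613 to 49347 TPM, of 1000000 per library, more than the gain of 7B. On 4B, TRITD4Bv1G186120 went from 13348 to 47123 TPM and TRITD4Bv1G186130 from 9815 to 41349 TPM, together more than the gain of 4B. On 1A, TRITD1Av1G210730 went from 8701 to 47066.5 TPM. Transcripts with no chromosome went from 5.15% ± 2.13 to 16.2% ± 1.96, TRITD0Uv1G003650 among them. All other chromosomes lost share, among them 6A from 5.18% ± 0.42 to 3.10% ± 0.44 and 6B from 4.49% ± 0.42 to 2.96% ± 0.34. The A subgenome took 49.4% ± 2.05 of TPM at 10 dpa and 36.1% ± 0.33 at 20 dpa, and the B subgenome took 45.4% ± 0.17 and 47.8% ± 2.16. The groups did not overlap in any of these shares, each with an exact permutation p = 0.1.

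The calls themselves were spread over the genome. Between 15.7% (6B) and 20.6% (2A) of the genes tested on a chromosome rose, and between 13.5% (3A) and 16.4% (1B) fell. On the A subgenome 18.4% rose and 15.2% fell, and on the B subgenome 17.8% rose and 15.1% fell. The loss of TPM share on the A subgenome was thus not matched by a like difference in the share of genes called. Transcripts with no chromosome, which were counted to neither subgenome, gained more share than the B subgenome. A shift of TPM from A to B is therefore not shown.

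Some DEGs of 1 direction were neighbours. There were 330 runs of at least 3 neighbouring tested genes that all rose, with 1101 genes, and 178 runs that all fell, with 585 genes. These counts stand beside 18.2% and 15.1% of all genes called, and whether neighbours were called together more often than other genes was not tested. The longest run that rose held 9 genes on chromosome 1B (477409982 to 479179829, Svevo.v1). Their TPM summed to 13.2, 13.95 and 13.2 at 10 dpa and to 30.1, 56.7 and 52.9 at 20 dpa. Within the run, TRITD1Bv1G153330 went from a mean of 0.066 to 9.12 TPM (log2 fold change 7.70 ± 1.12), while TRITD1Bv1G153550 went from 2.93 to 3.05 TPM (0.80 ± 0.17).

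The longest run that fell held 8 genes on chromosome 2B (439382406 to 440619238). Their TPM summed to 897, 622 and 880 at 10 dpa and to 193, 211 and 242 at 20 dpa. TRITD2Bv1G148350 carried most of this sum, at a mean of 639.5 and then 185 TPM (log2 fold change -1.07 ± 0.23). TRITD2Bv1G148600 went from 108 to 19.2 TPM (-1.75 ± 0.24), and TRITD2Bv1G148660 from 12.3 TPM to none. Without replicate 1 of 10 dpa the calls on TRITD2Bv1G148470 (-0.80, adjusted p = 0.072) and TRITD2Bv1G148610 (-0.74, adjusted p = 0.068) were lost, so that the 8 genes no longer formed 1 run.

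Of the DEGs that averaged 10 TPM or more at either timepoint, 1288 rose and 2836 fell. Of these, 606 and 2834 did not overlap in TPM between the groups, on a scale on which 9.2% of all genes tested were higher and 50.6% lower at 20 dpa without overlap. The 10 largest rises among them were transcripts that were at or near 0 in all libraries of 10 dpa. TRITD1Av1G143780 (1A, 387196763 to 387197117) had no counts at 10 dpa and stood at 0.572, 243 and 477 TPM at 20 dpa. The mean at 20 dpa was at least 1588-fold above a floor of 3 counts per library (edgeR adjusted p = 7.7e-05). This and the other folds given as at least are those of the mean of a group. A single library can lie far below that mean, as replicate 1 of 20 dpa did here.

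TRITD5Av1G185030 (5A, 501013990 to 501014333) had no counts at 10 dpa and stood at 11.9, 413 and 237 TPM at 20 dpa, at least 1389-fold higher. TRITD5Bv1G092570 (5B) stood at 0 and then at 13.2, 57.1 and 92.9 TPM, at least 442-fold higher. TRITD5Av1G217150 (5A), with a longer coding sequence of 1587 bases, stood at 0, 0.397 and 0 TPM and then at 12.01, 586 and 249 TPM, with a log2 fold change of 11.79 ± 1.76. In all 10 genes the lowest library of 20 dpa was replicate 1.

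TRITD2Av1G259630 reached 1.89, 73.5 and 42.3 TPM and TRITD7Av1G082010 reached 1.603, 35.8 and 40.0 TPM, from no counts at 10 dpa. TRITD5Bv1G174690 reached 10.3, 262 and 266 TPM and TRITD7Av1G173010 reached 7.20, 271 and 318 TPM. TRITD3Bv1G009790 reached 0.061, 18.8 and 21.4 TPM and TRITD5Bv1G211630 reached 0.118, 71.1 and 74.7 TPM. The last pair was thus close to 0 in replicate 1 of 20 dpa as well. All 10 kept their call under every alternative that tested them.

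At 30 dpa these genes went separate ways. TRITD5Bv1G092570 averaged 54.4 ± 39.9 TPM at 20 dpa and 2495 ± 1208 TPM at 30 dpa, and TRITD5Av1G185030 averaged 221 ± 201 and 642 ± 189 TPM. TRITD1Av1G143780 averaged 240 ± 238 and 25.5 ± 21.5 TPM, and TRITD3Bv1G009790 averaged 13.4 ± 11.6 and 1.18 ± 1.503 TPM. The SD was close to the mean in most of these, and of the 10 genes only TRITD5Bv1G092570 and TRITD5Av1G185030 had ranges of mean ± SD that did not overlap between 20 and 30 dpa.

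**Figure D2:**
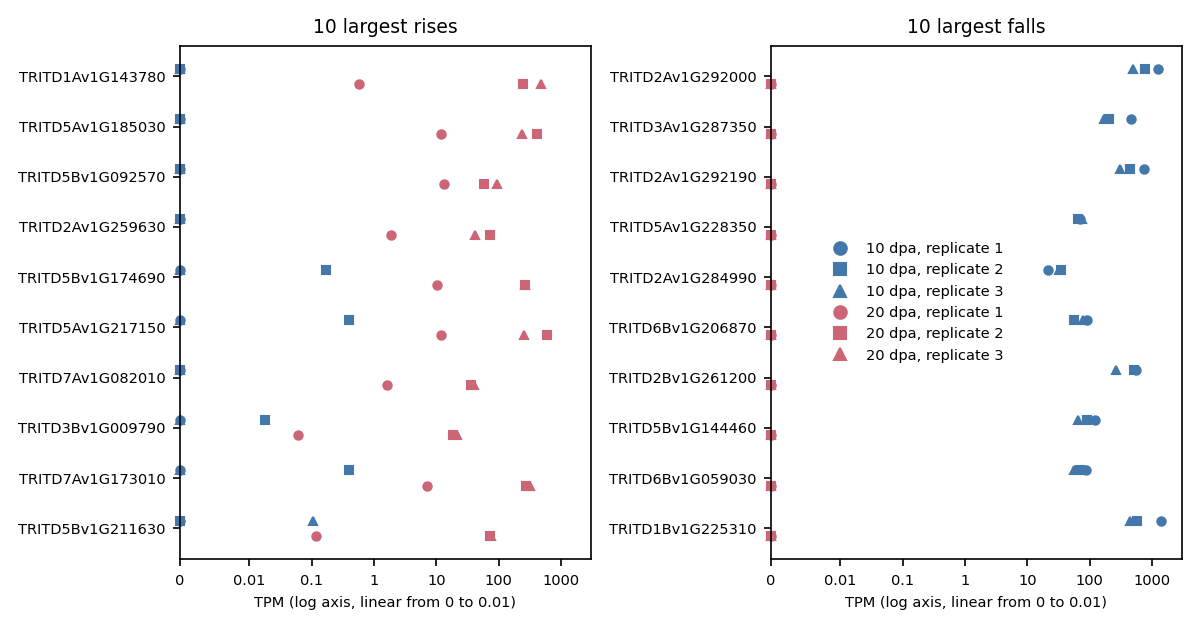
TPM per library of the 10 largest rises (left) and the 10 largest falls (right), on a log axis that is linear from 0 to 0.01, with libraries of 10 dpa in blue and of 20 dpa in red and a symbol for each replicate. The 10 genes that fell are at 0 in all libraries of 20 dpa, while those that rose are lowest at 20 dpa in replicate 1.

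The 10 largest falls were all at 0 in every library of 20 dpa. TRITD2Av1G292000 (2A, 768310801 to 768311187) stood at 1256, 770 and 494 TPM at 10 dpa, at least 3277-fold higher than the floor at 20 dpa (edgeR adjusted p = 3.8e-06). TRITD2Av1G292190 (2A, 768552118 to 768552504) stood at 748, 433 and 304 TPM, and TRITD2Bv1G261200 on 2B stood at 551, 512 and 263 TPM. All 3 had a coding length of 387 bases. TRITD1Bv1G225310 (1B) stood at 1368, 563 and 442 TPM and TRITD3Av1G287350 (3A) at 458, 202 and 168 TPM. These genes were highest at 10 dpa in replicate 1, as were 8 of the 10.

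TRITD5Av1G228350 (5A, 602535685 to 602537115), an AMY1 gene that encodes a secreted alpha-amylase, was among the 10. It stood at 70.4, 65.5 and 74.4 TPM at 10 dpa and had no counts at 20 dpa, a fall of at least 1897-fold. The remaining falls were TRITD2Av1G284990 at 21.6, 34.6 and 32.2 TPM, TRITD6Bv1G206870 at 91.2, 56.2 and 78.4 TPM, TRITD5Bv1G144460 at 122, 88.7 and 64.9 TPM, and TRITD6Bv1G059030 at 85.6, 68.5 and 56.7 TPM. The calls on all 10 were kept under every alternative.

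Many genes had counts at only 1 of these timepoints. Of the genes that fell, 425 had a summed estimated count under 0.5 at 20 dpa, and 188 of them had averaged at least 1 TPM and 92 at least 10 TPM at 10 dpa. Of the genes that rose, 435 had a summed count under 0.5 at 10 dpa, and 55 of them reached a mean of 1 TPM and 11 of 10 TPM at 20 dpa. Transcripts that were abundant and then lost were thus more numerous than transcripts that were absent and then abundant. The 92 lay on all chromosomes, with 11 each on 2A and 2B, and 70 of them (76.1%) had a coding length under 500 bases, against 13.3% of all genes tested and 26.3% of those with a mean of 10 TPM at 10 or 20 dpa.

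The other libraries placed these genes in time. The 92 genes summed to 19722, 20884 and 21600 TPM at 6 dpa and to 33421, 17530 and 19306 TPM at 8 dpa. They summed to 21006, 7630 and 7301 TPM at 10 dpa, to 1591, 433 and 128 TPM at 13 dpa, and to 59.9, 40.3 and 9.25 TPM at 15 dpa. At 30 dpa their sum was under 1 TPM in each library. The decline was thus nearly complete by 15 dpa, and at 10 dpa replicate 1 held the most.

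The 55 genes summed to 44.9, 1232 and 1316 TPM at 20 dpa. They summed to 35.4, 54.1 and 22.1 TPM at 18 dpa and to 4953, 3241 and 2484 TPM at 30 dpa. Replicate 1 of 20 dpa thus sat within the range of the 18 dpa libraries for these genes, and the other 20 dpa libraries sat between 18 and 30 dpa. Of the 55, 52 were lowest at 20 dpa in replicate 1 and 29 were listed at 0 there. All 55 were still called without that library, 51 without replicate 2 and 50 without replicate 3. At 30 dpa 35 of the 55 averaged at least 1 TPM.

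The DEGs as a whole followed a course that reached beyond the timepoints that chose them. The median level of the 8037 genes that rose, in log2 CPM with TMM scaling, stayed below 0 up to 10 dpa, with -0.19 ± 0.30 on day 6, -0.43 ± 0.16 on day 8 and -0.23 ± 0.33 on day 10. On day 13 it had reached 0.75 ± 0.23, on day 15 1.08 ± 0.20 and on day 18 1.40 ± 0.10. It ended at 1.87 ± 0.30 on day 20 and 1.99 ± 0.13 on day 30. The median of the 6694 genes that fell was 3.59 ± 0.09 on day 6 and 3.59 ± 0.06 on day 8. It passed through 3.17 ± 0.21 on day 10, 2.51 ± 0.22 on day 13 and 1.84 ± 0.10 on day 20 to 1.43 ± 0.20 on day 30. Over all genes tested the median stayed between 1.26 and 1.42.

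The libraries of 10 and 20 dpa chose these genes, so the direction of their levels between these days follows from that choice. Their shares of TPM are given as a description. The genes that rose took 5.79% ± 1.41 of TPM on day 6, 17.9% ± 8.41 on day 10, 66.6% ± 1.95 on day 20 and 74.1% ± 1.75 on day 30. The genes that fell took 58.3% ± 1.299 on day 6, 41.6% ± 9.15 on day 10, 9.21% ± 0.59 on day 20 and 5.86% ± 1.05 on day 30. Of the genes that rose, 3959 (49.3%) had their highest mean at 30 dpa and 2202 (27.4%) at 20 dpa. Of those that fell, 2892 (43.2%) had their highest mean at 6 dpa and 1376 (20.6%) at 10 dpa.

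**Figure D3:**
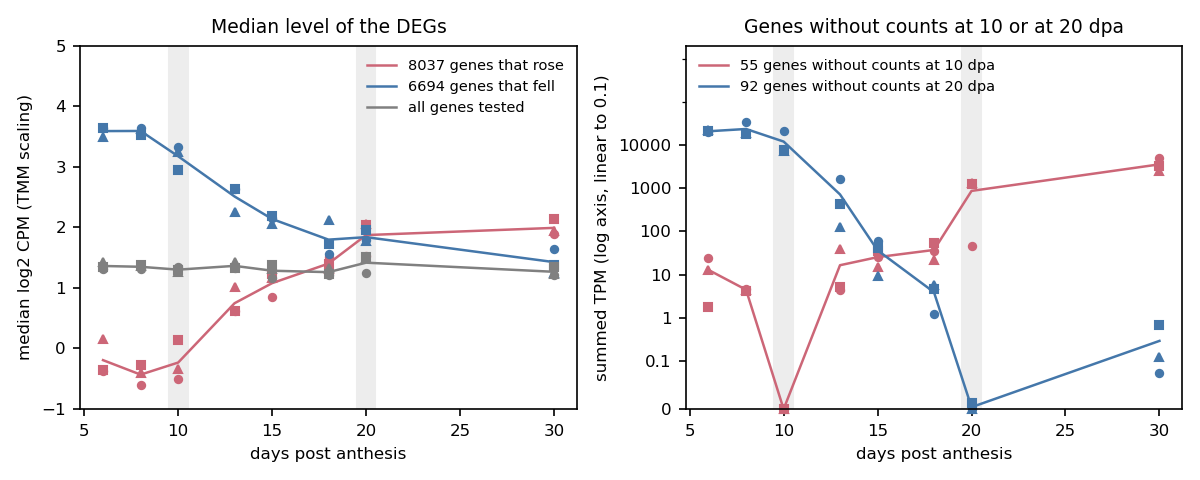
Left: median TMM-scaled log2 CPM per library of the genes that rose (red) or fell (blue) from 10 to 20 dpa and of all genes tested (grey), at 8 timepoints. Right: summed TPM per library of the 55 genes without counts at 10 dpa and the 92 without counts at 20 dpa, on a log axis that is linear up to 0.1. Lines join the means of 3 libraries, grey bands mark 10 and 20 dpa, and the genes that fell pass from 3.59 at 6 dpa to 1.43 at 30 dpa.

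The starch-related genes were read from a list of 133 genes that was set by orthology, of which 123 were tested. Of these, 39 rose and 11 fell, or 31.7% and 8.94% against 18.2% and 15.1% of all genes. Their median log2 fold change was 0.23, against 0.03 over all genes. With library totals 16 rose and 52 fell, with a median of -0.51 against -0.74. Without replicate 1 of 10 dpa 24 rose and 14 fell, with a median of 0.06 against 0.06. The excess of rises was smaller without that library, where 19.5% rose against 13.2% of all genes, and 11.4% fell against 12.1%.

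Of the 39 rises, 16 were also rises with library totals, and 14 of these 16 did not overlap in TPM between the groups. Of the 16, 13 were called without replicate 1 of 10 dpa. All 11 falls were also falls with library totals, as were all 6694 falls over all genes, so this does not set them apart. All 11 were also called without replicate 1 of 10 dpa, against 5064 of the 6694 over all genes. None of the 11 overlapped in TPM, a scale on which 50.6% of all genes tested were lower without overlap. In 5 of the 39 rises, BT1.2-B1, PTST1-B1, BAM10-A1, LSF2-B1 and pGlcT-B1, the log2 fold change was below 0 with library totals.

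**Figure D4:**
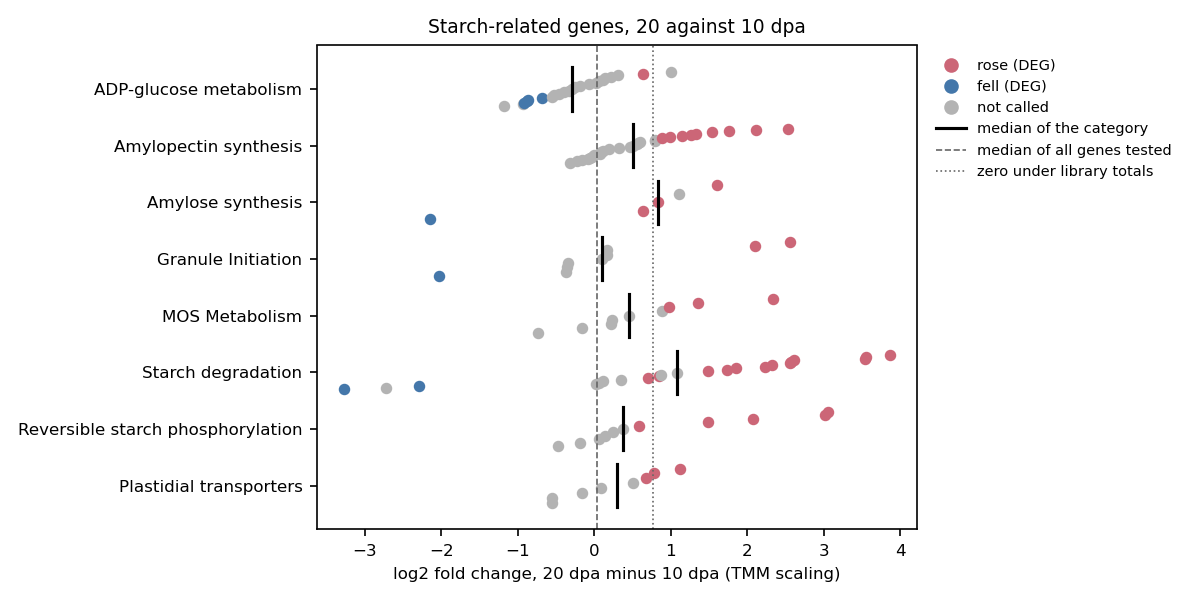
Log2 fold change from 10 to 20 dpa (TMM scaling) of each tested starch-related gene with counts at both timepoints, by category, with DEGs that rose in red, DEGs that fell in blue and genes not called in grey. The black bar is the median of the category, the dashed line the median of all genes tested, and the dotted line the value that corresponds to 0 under library totals. Starch degradation has the highest median, at 1.08, and ADP-glucose metabolism the lowest, at -0.29.

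In ADP-glucose metabolism, which makes and imports the substrate of starch synthesis, 1 of 23 genes rose and 4 fell, with a median log2 fold change of -0.29, against 18.2% and 15.1% of all genes tested. With library totals none rose and 18 fell (78.3%, median -1.06), against 8.15% and 43.4% of all genes. Without replicate 1 of 10 dpa none rose and 6 fell (26.1%, median -0.48), against 13.2% and 12.1%. NTT1-A1 and NTT1-B1, plastidial nucleotide transporters, stood at 9.55, 15.1 and 18.5 TPM and 7.95, 14.2 and 16.0 TPM at 10 dpa. At 20 dpa they stood at 5.3, 5.17 and 3.47 TPM and 3.93, 5.17 and 3.19 TPM, with log2 fold changes of -0.87 ± 0.18 and -0.88 ± 0.23. pPGI-B1, the plastidial phosphoglucose isomerase, went from 42.1, 52.0 and 66.7 TPM to 20.9, 17.3 and 12.1 TPM (-0.92 ± 0.23, edgeR adjusted p = 0.0038), and NTT2-A1 also fell (-0.68 ± 0.16). The exception in direction was BT1.2-B1 (0.63 ± 0.23), at 2.72 to 3.68 TPM in the 6 libraries, and this call was lost without replicate 1 of 10 dpa (0.61, adjusted p = 0.094).

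The abundant genes of this category were not called with TMM scaling. AGPS1-A1, the small subunit of ADP-glucose pyrophosphorylase, stood at 398, 979 and 800 TPM and then at 629, 557 and 404 TPM (log2 fold change 0.31 ± 0.41, edgeR adjusted p = 0.57). cAGPL-B1, its cytosolic large subunit, stood at 370, 1174 and 1088 TPM and then at 678, 581 and 514 TPM (0.21 ± 0.41, adjusted p = 0.71). BT1.1-A1, the ADP-glucose transporter, stood at 358, 845 and 855 TPM and then at 296, 205 and 129 TPM (-0.93 ± 0.49, adjusted p = 0.14), and averaged 39.0 TPM at 30 dpa. BT1.1-B1 stood at 266, 625 and 686 TPM and then at 206, 127 and 73.6 TPM (-1.17 ± 0.47, adjusted p = 0.052), and was called a fall without replicate 1 of 10 dpa (-1.47, adjusted p = 0.030). With library totals both BT1.1 copies were called falls (-1.70 and -1.95), and AGPS1-A1 and cAGPL-B1 turned to -0.43 and -0.52 without a call. In AGPS1-A1 and cAGPL-B1 the low value of replicate 1 at 10 dpa made the groups overlap, whereas those of both BT1.1 copies did not overlap.

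In amylopectin synthesis 9 of 29 genes rose (31.0%) and none fell, with a median of 0.51, against 18.2% and 15.1% of all genes. With library totals 2 rose and 10 fell (median -0.22), against 8.15% and 43.4% of all genes. Without replicate 1 of 10 dpa 5 rose and none fell (median 0.23), against 13.2% and 12.1%. SBE1.1, a starch branching enzyme, had the largest rises. SBE1.1-A1 stood at 18.5, 64.0 and 43.7 TPM at 10 dpa and at 149, 157 and 122 TPM at 20 dpa (2.53 ± 0.37, edgeR adjusted p = 4.1e-05). SBE1.1-B1 stood at 22.6, 63.3 and 43.0 TPM and then at 112, 122 and 93.5 TPM (2.11 ± 0.32, adjusted p = 5.4e-05). Both rose with library totals and without replicate 1 of 10 dpa, where their log2 fold changes were 2.2 and 1.84.

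The other branching enzymes did not pass the test. SBE2a-A1 stood at 181, 355 and 352 TPM and then at 207, 188 and 156 TPM (0.08 ± 0.29, adjusted p = 0.84). SBE2b-A1 stood at 92.0, 312 and 262 TPM and then at 200, 197 and 155 TPM (0.51 ± 0.42, adjusted p = 0.36). With library totals they turned to -0.67, a call, and -0.22, no call. Of the starch synthases, which elongate the chains, SS1-B1 stood at 48.7, 148 and 122 TPM and then at 142, 141 and 128 TPM (1.15 ± 0.35, adjusted p = 0.015), and this call was lost without replicate 1 of 10 dpa (0.83, adjusted p = 0.082). SS3b-A1 and SS3b-B1 rose from low levels (2.04 ± 0.36 to 2.89 ± 0.28 TPM and 1.43 ± 0.30 to 2.12 ± 0.38 TPM) by 1.27 ± 0.16 and 1.32 ± 0.19 on the log2 scale, and SS2a was not called (-0.22 ± 0.36 and -0.06 ± 0.39). The rises of SS1 and SS3b were not calls with library totals.

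In amylose synthesis 3 of 5 genes rose and 1 fell, none rose and 1 fell with library totals, and 2 rose and 1 fell without replicate 1 of 10 dpa. Of all genes 18.2% rose and 15.1% fell, and with library totals 8.15% and 43.4%. Without replicate 1 of 10 dpa these shares were 13.2% and 12.1%. GBSS1-A1 stood at 77.3, 593 and 349 TPM at 10 dpa and at 697, 642 and 464 TPM at 20 dpa (1.6 ± 0.48, edgeR adjusted p = 0.014), and was not called with library totals (0.90). GBSS1-A2 stood at 160, 834 and 561 TPM and then at 767, 695 and 490 TPM (1.11 ± 0.46, adjusted p = 0.066). In both genes replicate 1 of 10 dpa was far below the other libraries, and without it the log2 fold changes were 1.14 and 0.69. GBSS2-B1 fell by 2.15 on the log2 scale (SE 0.31, adjusted p = 3.3e-05). PTST1-A1, which in Arabidopsis targets the enzyme to the granule, rose by 0.83 ± 0.20 at 7.77 to 11.5 TPM in the 6 libraries.

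Granule initiation had changes in both directions. BGC1, which is required for B-type granules in wheat, rose in both copies. BGC1-A1 stood at 3.03, 3.95 and 2.85 TPM and then at 11.6, 11.6 and 11.3 TPM (2.56 ± 0.21, edgeR adjusted p = 1.9e-07), and BGC1-B1 at 3.25, 8.51 and 4.15 TPM and then at 16.0, 13.98 and 10.3 TPM (2.1 ± 0.31). MRC-A1, the myosin-resembling chloroplast protein that in wheat restrains the early start of B-type granules, stood at 3.33, 2.18 and 3.32 TPM and then at 0.594, 0.432 and 0.267 TPM (-2.03 ± 0.33, adjusted p = 0.00012). None of these groups overlapped, and each call was kept with library totals and without replicate 1 of 10 dpa. The other 6 genes tested in the category, SS4 and the MFP1 genes, were not called (-0.36 to 0.17). With library totals all 6 were below 0 (-1.14 to -0.60) and 5 of them were called falls, where 43.4% of all genes fell.

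In starch degradation 13 of 23 genes rose (56.5%) and 3 fell (13.0%), with a median of 1.08. Of all genes tested 18.2% rose and 15.1% fell, with a median of 0.03. With library totals 8 rose and 5 fell (median 0.39), against 8.15% and 43.4% of all genes. Without replicate 1 of 10 dpa 9 rose and 3 fell, against 13.2% and 12.1% of all genes. Without replicate 3 of 10 dpa 7 rose and 2 fell, against 13.6% and 12.4% of all genes. The beta-amylase BAM5.3 dominated the category. BAM5.3-A1 stood at 284, 1938 and 1042 TPM at 10 dpa and at 3924, 3821 and 3563 TPM at 20 dpa (2.57 ± 0.80, edgeR adjusted p = 0.016), and BAM5.3-B1 at 349, 2262 and 1412 TPM and then at 3882, 4174 and 3700 TPM (2.33 ± 0.77, adjusted p = 0.022). The groups did not overlap in either copy, and the calls were lost without replicate 1 of 10 dpa (2.13 and 1.89, adjusted p = 0.067 and 0.088) and without replicate 3 of 10 dpa (adjusted p = 0.058 and 0.066). The category summed to 0.25% ± 0.18 of TPM at 10 dpa and to 0.78% ± 0.04 at 20 dpa, and this was the category with the largest sum at 20 dpa.

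Most other rises in this category were at low levels. ISA3-A1, a debranching enzyme, stood at 0.051, 0.160 and 0.089 TPM and then at 0.190, 1.46 and 0.989 TPM (3.86 ± 0.70). BAM1.1-A1, a beta-amylase, stood at 0.031, 0.536 and 0.159 TPM and then at 1.86, 1.88 and 1.15 TPM (3.53 ± 0.66). LDA-B1, the limit dextrinase, was more abundant, at 3.25, 22.3 and 10.7 TPM and then at 32.7, 22.4 and 20.1 TPM (1.85 ± 0.49, adjusted p = 0.0064), with groups that overlapped. AMY3-B1, an alpha-amylase, rose by 2.23 ± 0.34 from 0.128, 0.193 and 0.215 TPM to 0.439, 0.495 and 0.545 TPM. BAM5.1-A1 fell, from 1.53, 3.70 and 9.69 TPM to 0.252, 0.188 and 0.430 TPM (-3.27 ± 0.65), as did BAM5.1-B1 (-2.29 ± 0.62, lost without replicate 3 of 10 dpa at an adjusted p of 0.075) and BAM5.2-A1, which had no counts at 20 dpa and was at least 6.40-fold lower.

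Of the AMY1 genes, which encode secreted alpha-amylases, 15 were listed, 6 were tested and 2 fell (33.3%), against 15.1% of all genes. The other 4 tested were not called. Beside TRITD5Av1G228350, TRITD5Bv1G227200 (5B) stood at 34.2, 14.6 and 30.1 TPM at 10 dpa and had no counts at 20 dpa, a fall of at least 716-fold (edgeR adjusted p = 9.2e-05). The 9 not tested had at most 16 estimated counts over the 6 libraries.

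In the metabolism of malto-oligosaccharides (MOS), 3 of 9 genes rose (33.3%) and none fell, against 18.2% and 15.1% of all genes. With library totals 2 rose and 2 fell (22.2% each), against 8.15% and 43.4% of all genes. Without replicate 1 of 10 dpa 2 rose and none fell, against 13.2% and 12.1% of all genes. DPE1, the disproportionating enzyme, rose in both copies. DPE1-B1 stood at 8.30, 18.9 and 16.0 TPM and then at 41.8, 48.2 and 38.4 TPM (2.33 ± 0.29, edgeR adjusted p = 7.4e-06), and DPE1-A1 at 8.77, 28.6 and 21.7 TPM and then at 32.5, 33.9 and 22.2 TPM (1.35 ± 0.33). The B copy separated the groups and the A copy did not. PHS1, the plastidial starch phosphorylase and the most abundant pair here, was not called (-0.17 ± 0.36 and -0.74 ± 0.35).

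In reversible starch phosphorylation 5 of 11 genes rose (45.5%) and none fell, against 18.2% and 15.1% of all genes. With library totals 2 rose and 4 fell (18.2% and 36.4%, median -0.38), against 8.15% and 43.4% of all genes. Without replicate 1 of 10 dpa 3 rose and 1 fell, against 13.2% and 12.1%. GWD1.2, a glucan, water dikinase, rose by 3.05 ± 0.59 in the A copy, from 0.243, 0.258 and 0.222 TPM to 0.318, 2.00 and 1.34 TPM, and by 3.01 ± 0.43 in the B copy, from 0.160, 0.217 and 0.222 TPM to 0.447, 1.41 and 1.03 TPM. Replicate 1 of 20 dpa was the lowest of its group in both copies. Of the plastidial transporters 3 of 8 genes rose (37.5%) and none fell, against 18.2% and 15.1% of all genes. With library totals none rose and 4 fell (50%), against 8.15% and 43.4% of all genes. Only pGlcT-A1 rose and none fell without replicate 1 of 10 dpa, against 13.2% and 12.1% of all genes. pGlcT-A1, the glucose transporter, rose by 1.12 ± 0.17 at 16.1 to 37.7 TPM in the 6 libraries, pGlcT-B1 by 0.67 ± 0.16 and MEX1-A1, the maltose transporter, by 0.77 ± 0.20, and none of these was a rise with library totals.

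**Figure D5:**
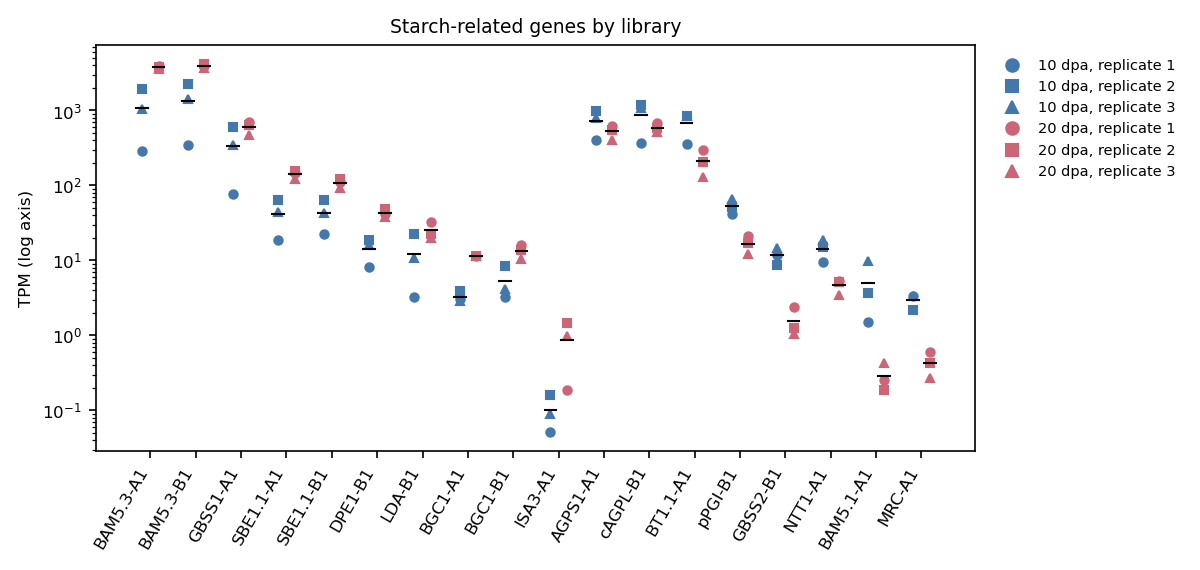
TPM per library (log axis) of 18 starch-related genes, with libraries of 10 dpa in blue, of 20 dpa in red, a symbol for each replicate and black bars for the means. BGC1-A1 stands at 2.85 to 3.95 TPM at 10 dpa and 11.3 to 11.6 TPM at 20 dpa, while replicate 1 of 10 dpa (circles) is the lowest library for BAM5.3, GBSS1-A1 and SBE1.1.

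Of 56 pairs of starch-related genes, 55 had both copies tested. Both copies rose in 15 pairs and fell in 2, and 1 copy rose in 6 and fell in 3. Neither was called in 29, and no pair was called in opposite directions. Of all genes tested 18.2% rose and 15.1% fell. Of the 39 starch-related rises, 16 were kept with library totals and 24 without replicate 1 of 10 dpa. When the counts of the copies were summed before the fit, 17 pairs rose and 4 fell. Copies share reads, which the quantification divides between them, so the sum is the more certain value. For the same reason the calls on the copies of a pair are not independent.

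The ratio of A to B shifted in some pairs. In cAGPL the log2 ratio was -1.38, -1.40 and -1.43 at 10 dpa and -0.71, -0.51 and -0.60 at 20 dpa, so the A copy gained on the B copy. In DPE1 it was 0.08, 0.59 and 0.44 and then -0.36, -0.50 and -0.79, and here the B copy gained. In MEX1 it was 0.26, 0.26 and 0.25 and then 1.18, 1.09 and 1.23. Of 31 pairs averaging 10 TPM or more, the mean ratio changed by less than 0.5 in 26. These ratios were not tested.

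ATG8d-B1 (TRITD2Bv1G094560), the reference gene of the study's quantitative RT-PCR, stood at 478, 370 and 390 TPM at 10 dpa and at 255, 255 and 312 TPM at 20 dpa. Its log2 fold change was 0.18 ± 0.12 with TMM (edgeR adjusted p = 0.26) and -0.61 with library totals. With library totals it was called a fall, where the median gene stood at -0.74.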

How the data were processed

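Poly-A RNA of dissected Kronos endosperm was sequenced as 150 bp reads. The authors quantified transcripts of the Svevo v1 annotation with kallisto 0.46.1, and deposited 2 values per transcript and library, the estimated count and the TPM. kallisto divides reads shared by similar transcripts, so single copies of homeologs and duplicated genes are less certain than their sums. Lengths in the deposited table are nearly all multiples of 3 and are called coding lengths. Positions are those of Svevo.v1, and no gene products were assigned outside the starch list, which follows the study.

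Estimated counts were rounded and tested with edgeR 4.0.16 (TMM, quasi-likelihood F test, timepoint as factor, all 24 libraries, so that all timepoints share 1 estimate of spread) over 44240 transcripts that reached 10 counts in 3 or more libraries, of 66559 listed. Adjusted p-values are by Benjamini-Hochberg. The SE is the absolute log2 fold change divided by the square root of F. Tested on simulated counts (44240 genes), edgeR recovered 25 of 100 genes changed 2-fold and 61 of 100 changed 4-fold, with 5 false calls. In the simulation only these genes changed and no shift of composition was set, whereas 33.3% of genes were called in the data. These figures therefore do not carry over to the comparison. Genes that could be named were the starch list, the 10 largest rises and falls with a mean of at least 10 TPM and no overlap, the 5 most abundant transcripts of each timepoint, the longest runs and the RT-PCR reference ATG8d-B1. Of these, 77 were followed one by one through the alternatives, namely the starch-related DEGs and all the others except the runs. The comparison, lists and tests were chosen with earlier results of these data known. Alternatives were DESeq2 1.42.0, other scalings and filters, limma 3.58.1 on log2(TPM + 0.1) and log2(TPM + 1), a replicate block, summed homeologs, and each library left out. Precision covers the spread between pools.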

Additional observations from a re-analysis of the deposited data

How the results depend on the processing

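The counts of DEGs (8037 rose, 6694 fell) moved by over 1.5 times with library totals (3607 and 19192), a filter of 10 CPM in 3 libraries (3249 and 3399), limma on log2(TPM + 0.1) (3723 and 19224) or log2(TPM + 1) (2112 and 14517), and an absolute log2 fold change over 1.5 (4993 and 2406). The starch-related DEGs (39 rose, 11 fell) became 16 and 52 with library totals, 16 and 47 or 15 and 37 with limma, 21 and 7 with an absolute log2 fold change over 1.5, and 25 rises when only the 6 libraries were fitted. The 10 CPM filter tests fewer genes, and library totals and TPM leave the shift of the median gene in place. The causes of the other moves were not tested. With each library left out in turn, 5845 to 7897 genes rose and 5317 to 7046 fell, and 24 to 44 starch-related genes rose and 10 to 14 fell. The lowest counts of rises, 5845 and 24, were those without replicate 1 of 10 dpa. The gain in share of the 10 most abundant transcripts was 29.1 percentage points and 27.8 to 30.7 with a library left out, and 25.1 with estimated counts. That of the 100 most abundant was 34.8, and 33.4 to 37.2. The number of transcripts over 1 TPM differed by -2751, by -3331 to -2202 with a library left out, and by -3976 over 5 TPM. Pairs of homeologs that fell went from 2 to 4 with copies summed.

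Under library totals, limma on log2(TPM + 0.1) and limma on log2(TPM + 1), in this order, 6 of the 77 genes followed one by one turned negative. The log2 fold change of BT1.2-B1 was then -0.14, -0.10 and -0.0791. The log2 fold change of PTST1-B1 was then -0.14, -0.13 and -0.11. The log2 fold change of BAM10-A1 was then -0.0749, -0.0603 and -0.0550. The log2 fold change of LSF2-B1 was then -0.18, -0.16 and -0.13. The log2 fold change of pGlcT-B1 was then -0.0946, -0.0782 and -0.0771. The log2 fold change of ATG8d-B1 was then -0.61, -0.59 and -0.59. These 77 genes are the starch-related DEGs, the 10 largest rises and falls, the 5 most abundant transcripts of each timepoint and ATG8d-B1. Over them, 1122 of 1279 values under an alternative kept direction and call, and 135 lost the call.

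Whether replicate numbers pair the samples is not known, since spikes of the same plant could serve several timepoints. The deviations of libraries with the same number correlated at -0.0322, -0.0501 and 0.0283. Those with different numbers correlated at -0.0499 to 0.0687, so these values cannot decide it. With the replicate number as a block, 7818 genes rose and 6634 fell, and of the starch-related genes 39 rose and 12 fell.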
